A study of Mus musculus with 38 samples.

Results

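Expression of the plasminogen activators Plau (urokinase, uPA) and Plat (tissue-type activator, tPA), the urokinase receptor Plaur and the serpins Serpine2, Serpinb2 and Serpinf2 was described in mouse ovarian tumors and the cell lines that form them. The genes were picked by symbol, each matched to its mouse Ensembl identifier, and are 6 of the 55487 genes counted in the tumor and the cell line tables. Bulk RNA sequencing covered 34 omental tumors and 4 cell line libraries. High-grade serous ovarian cancer (HGSOC) is commonly treated with carboplatin, which crosslinks DNA, and paclitaxel, which stabilizes microtubules, and the series asked how these drugs alter the tumor and its matrix in 2 transplantable models.

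60577 cells were injected into the peritoneal cavity of female FVB mice and HGS2 cells into female C57BL/6J mice, which were 8 to 9 weeks old and wild type. Each model is 1 cell line, so a difference between models is also a difference of mouse strain and of tumor age. Treated mice received 3 weekly intraperitoneal doses of carboplatin (20 mg/kg) with paclitaxel (10 mg/kg), from day 21 after injection in 60577 and from day 49 in HGS2. Control mice received the vehicle, a mix of Koliphor EL, ethanol, water and PBS. Tumors were taken 1 day (TP1), 7 days (TP2) or 21 days (TP3) after the last dose. Groups held 3 control and 3 treated tumors at TP1 in each model, 3 control and 4 treated tumors at TP2 in 60577, 4 control and 3 treated tumors at TP2 in HGS2, and 4 treated tumors at TP3 in each. TP3 had no controls, so its tumors were set against the TP2 controls, a contrast in which treatment cannot be told apart from time. The cell lines were untreated monocultures, 2 libraries per line, grown with 4% serum, insulin, transferrin, selenium, hydrocortisone and epidermal growth factor.

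Plasmin is a serine protease that dissolves fibrin and degrades or activates many matrix proteins, and it is made from circulating plasminogen by uPA or tPA. The uPA receptor, a lipid-anchored surface protein, holds uPA on the cells that use it, among them macrophages, neutrophils and invading tumor cells. Serpins trap the proteases: Serpine2 (protease nexin-1) inhibits thrombin and both activators, Serpinb2 (PAI-2) inhibits uPA and is largely kept inside macrophages and epithelial cells, and Serpinf2 (alpha-2-antiplasmin), made mainly by the liver, inhibits plasmin itself.

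Summed counts ranged from 17839635 to 49299442 per tumor and from 31633121 to 42461995 per cell line library. Levels are given as counts scaled by TMM-corrected library size (CPM), or, between genes, per kilobase of exon as well (RPKM). Of the 7 tumor epithelium markers tested, 5 were lower in HGS2 control tumors than in 60577 control tumors, beside 8.81% of all genes. Between the cultures, 5 of the 7 were also lower in HGS2 cells, beside 8.38% of all genes. There the list summed to 1392 to 1548 CPM in HGS2 and 4540 to 4890 CPM in 60577, so the lines themselves differ. The sum of this list reached 502 CPM at most in HGS2 TP1 controls and was 368 to 1063 CPM in HGS2 TP2 controls. It was at least 1994 CPM in 60577 TP1 controls and 2121 to 3100 CPM in 60577 TP2 controls. Treated 60577 tumors at TP2, at 499 to 885 CPM, overlapped the HGS2 TP2 controls. Epcam reached 22.6 CPM at most in HGS2. Krt8 was listed at 0 in HGS2 TP3 treated replicate 1. That library was left out of the HGS2 tests because it does not appear in the study's own sample tables. Other libraries stood apart as well. TP2 control replicate 2 of 60577 held the highest Serpinb2 and Plaur of all 34 tumors. Among HGS2 tumors, TP1 control replicate 3, TP2 control replicate 2 and TP3 treated replicate 2 were rich in pancreas RNA, with 5778 to 8286 CPM of Cpa1, a pancreatic carboxypeptidase. Results that rest on these libraries are given with and without them. Nothing in the labels says more than that the tumors are separate samples, so the p-values measure the spread between them. A difference was called, and is written as a rise or a fall, where edgeR's quasi-likelihood test gave a Benjamini-Hochberg adjusted *p* below 0.05 over all genes tested and the log2 fold change (log2FC) exceeded 1 in size. In bulk RNA, fewer cells of a type and less RNA per cell cannot be told apart.

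All 6 genes code for proteins (GRCm38, GENCODE M21). Plau (ENSMUSG00000021822) lies at chr14:20836660-20843385 on the plus strand, and Plat (ENSMUSG00000031538) at chr8:22757727-22782844 on the same strand. Plaur (ENSMUSG00000046223) lies at chr7:24462484-24475968, plus strand. Serpine2 (ENSMUSG00000026249) occupies chr1:79794197-79861180 on the minus strand, and Serpinf2 (ENSMUSG00000038224) occupies chr11:75431732-75439591, also minus. Serpinb2 (ENSMUSG00000062345) lies at chr1:107511423-107535478 on the plus strand and overlaps Serpinb10 on that strand, so the split of shared reads between that pair is uncertain.

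Plaur and Serpinb2 were called in the same 60577 comparisons at TP2 and at TP3 and between treated tumors, and the 250 bases before their RefSeq starts are shown for that reason (GRCm38.p6, plus strand, chr7:24462233-24462482 and chr1:107511173-107511422, base -1 next to the start). Without TP2 control replicate 2 neither gene kept its call at TP2 or at TP3. Capitals mark the motifs searched on both strands, which were AP-1 (TGANTCA), CRE (TGACGTCA), TATA box (TATAAA) and GC box (GGGCGG).
Plaur: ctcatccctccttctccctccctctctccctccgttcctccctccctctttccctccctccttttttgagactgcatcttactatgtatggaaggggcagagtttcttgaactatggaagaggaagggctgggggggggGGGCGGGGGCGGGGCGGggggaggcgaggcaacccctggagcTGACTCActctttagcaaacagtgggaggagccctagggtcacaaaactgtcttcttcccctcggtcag
Serpinb2: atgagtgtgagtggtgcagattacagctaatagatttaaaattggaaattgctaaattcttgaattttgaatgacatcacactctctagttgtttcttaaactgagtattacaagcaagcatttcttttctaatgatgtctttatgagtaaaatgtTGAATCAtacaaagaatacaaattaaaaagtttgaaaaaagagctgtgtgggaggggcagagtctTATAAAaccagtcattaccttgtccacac
The Plaur sequence held an AP-1 match (TGACTCA) at -69 to -63 and 3 GC boxes between -111 and -95, of which the last 2 share a base. The Serpinb2 sequence held an AP-1 match (TGAATCA) at -94 to -88 and a TATA box at -29 to -24. RefSeq lists a second, downstream Serpinb2 start, from which the same matches lie at -181 to -175 and at -116 to -111. Of 32851 mouse promoter windows of this length, 6.75% held the AP-1 motif, 1.55% CRE, 12.37% the TATA box and 32.74% the GC box. Serpine2 held 6 GC boxes and no other match, and Serpinf2 held no match. A match is a run of letters and shows neither a bound factor nor a cause. Plau and Plat had no promoter entry.

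Plat was the most abundant activator RNA per kilobase in 60577 control tumors, with a median of 20.9 RPKM (16.3 to 24.1, n = 6), against 8.27 RPKM for Plau (6.68 to 12.2). In HGS2 control tumors Plau had the higher median, 25.5 RPKM (13.0 to 51.6, n = 7), and Plat 14.2 RPKM (9.14 to 29.4), so that the ranges of the activators overlapped in that model and not in 60577. Plaur, the receptor, sat at a median of 8.73 RPKM in 60577 controls and 10.5 in HGS2 controls. The serpins were lower, with medians of 4.91 and 2.72 RPKM for Serpine2, 2.08 and 2.07 for Serpinb2, and 0.137 and 0.0743 for Serpinf2. Serpinf2 never exceeded 19 expected counts in a tumor or 11 in a cell line library, failed the filter on low counts, and was not tested. Its highest level was 0.676 CPM, in HGS2 TP2 treated replicate 2, and it had no count in HGS2 TP3 treated replicate 1. The other 5 members were tested in tumors.

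**Figure D1:**
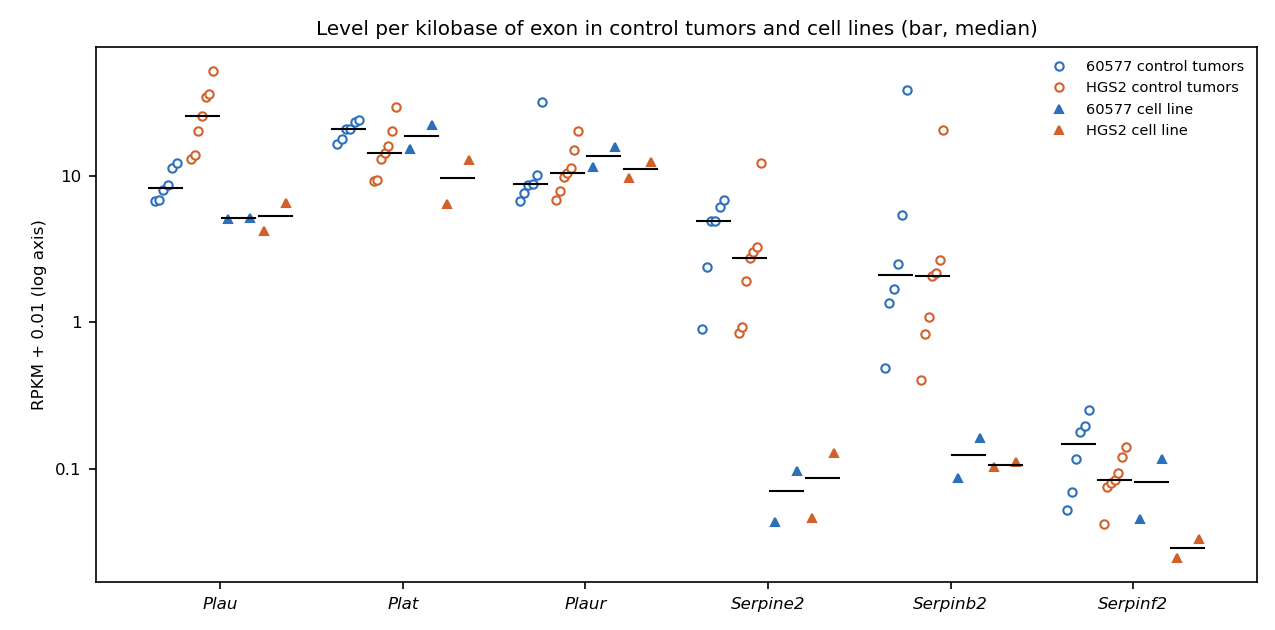
RPKM (plus 0.01, log axis) of each gene in 60577 and HGS2 control tumors (circles, 6 and 7 tumors) and in cell line libraries (triangles, 2 per line), with a bar at the median. Plat, Plau and Plaur were present in tumors and cultures, whereas Serpine2 and Serpinb2 lay below 0.16 RPKM in every culture.

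Plau carried the clearest treatment difference in 60577. One day after the last dose it stood at 60.7, 49.3 and 60.9 CPM in treated tumors, against 15.8, 18.8 and 20.4 CPM in controls. All treated tumors lay above all controls. The level rose 3.13-fold (log2FC 1.64, SE 0.27, edgeR quasi-likelihood adjusted *p* = 0.000369), and the call held in every alternative run, with log2FC between 1.55 and 1.74. A week after the last dose the groups overlapped. At TP2 Plau was at 33.3, 32.5, 15.7 and 28.6 CPM in treated tumors and at 28.8, 26.8 and 16.1 CPM in controls (log2FC 0.19, SE 0.25, edgeR adjusted *p* = 0.518). TP3 treated tumors held 32.1, 29.0, 29.8 and 44.6 CPM, all above the TP2 controls, by a log2FC of 0.51 (SE 0.25) that did not pass the test (edgeR adjusted *p* = 0.102). Between treated tumors, Plau fell by 1.06 on the log2 scale from TP1 to TP2 (SE 0.24, edgeR adjusted *p* = 0.012). That fall did not pass without TP1 treated replicate 1 (adjusted *p* = 0.063) nor with both models fitted together (0.0785) or only these groups (0.0575), and it shrank to -0.86, within the fold limit, without TP2 treated replicate 3.

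Plat did not pass the test in any tumor comparison. In 60577 at TP1 it was at 194, 169 and 137 CPM in treated tumors and at 102, 111 and 131 CPM in controls. The groups did not overlap, yet the log2FC of 0.55 (SE 0.29) missed the threshold (edgeR adjusted *p* = 0.169). At TP2 the controls held 151, 129 and 146 CPM, whereas treated tumors divided into 156 and 156 CPM in replicates 1 and 2 and 61.1 and 67.6 CPM in replicates 3 and 4. TP3 treated tumors were at 149, 152, 127 and 139 CPM, within 1 narrow band. Replicates 3 and 4 at TP2 were thus the lowest 60577 tumors for this activator.

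Plaur, the receptor, was at 54.6, 27.9 and 60.8 CPM in treated 60577 tumors at TP1 and at 20.0, 22.8 and 22.9 CPM in controls. Treated tumors lay above all controls, with replicate 2 nearest to them, but the log2FC of 1.13 (SE 0.44) was just short of the threshold (edgeR adjusted *p* = 0.0577). Without treated replicate 2 the difference passed (log2FC 1.41, adjusted *p* = 0.0312), as it did with DESeq2 (adjusted *p* = 0.0247), and with only these groups fitted (0.0157). The TP2 controls share the estimate of spread, and without TP2 control replicate 2 in the fit the log2FC stayed at 1.13 with an SE of 0.27 and passed (edgeR adjusted *p* = 0.00444). That library was chosen after the data were seen and holds the highest Plaur and Serpinb2 of all tumors. A smaller SE for these genes follows from that choice, so this pass adds no support. At TP2 the receptor was at 15.5, 15.9, 14.7 and 22.7 CPM in treated tumors, whereas the controls ranged over 26.6, 83.6 and 17.5 CPM. It was called 2.52-fold lower (log2FC -1.33, SE 0.40, edgeR adjusted *p* = 0.011), a call that rested on control replicate 2 at 83.6 CPM. Without that library the log2FC was -0.37 (adjusted *p* = 0.283), and with only these 2 groups in the fit the adjusted *p* was 0.0597. The same applied at TP3, where treated tumors held 21, 23.3, 14.7 and 18.6 CPM. Against TP2 controls the log2FC was -1.13 (SE 0.40, edgeR adjusted *p* = 0.0278) with that control and -0.17 (adjusted *p* = 0.652) without it. Leaving out TP3 treated replicate 3 or 4 also ended this call (adjusted *p* = 0.0714 and 0.0569), as did limma-voom (0.0984), the replicate number as a block (0.0579) and a fit of only those groups (0.0848).

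A comparison of Plaur among treated tumors sets no tumor against that control. From TP1 to TP2 it fell by 1.49 on the log2 scale (SE 0.40, edgeR adjusted *p* = 0.0226), and the groups did not overlap. The call was lost without TP1 treated replicate 1 (adjusted *p* = 0.0952), TP1 treated replicate 3 (0.0823) or TP2 treated replicate 3 (0.061), with log2FC from -1.76 to -1.27 over all tumors left out in turn. Without TP2 control replicate 2 in the shared estimate of spread it held (log2FC -1.49, SE 0.25, edgeR adjusted *p* = 0.0022). The smaller SE again follows from the choice of that library and adds no support.

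Serpinb2 varied most among the inhibitors of 60577 tumors. At TP1 it was at 31.0, 26.2 and 41.2 CPM in treated tumors and at 3.16, 3.94 and 5.84 CPM in controls. The groups did not overlap, and the level rose 7.63-fold (log2FC 2.93, SE 0.99, edgeR adjusted *p* = 0.0338). This call stood close to the threshold: it was lost without control replicate 1, 2 or 3 (adjusted *p* = 0.112, 0.0931 and 0.069) and without treated replicate 1 or 3 (0.0579 and 0.0766), with limma-voom (0.0522) and with both models fitted together (0.142), while the log2FC stayed between 2.73 and 3.22. Without TP2 control replicate 2 in the estimate of spread the log2FC was 2.93 with an SE of 0.72 (edgeR adjusted *p* = 0.0059). That library was chosen for its high Serpinb2 and Plaur, so the smaller SE adds no support. At TP2, treated tumors held 3.73, 3.79, 0.394 and 1.28 CPM, and the controls 12.6, 90.8 and 1.11 CPM, so that the groups overlapped. The serpin was called lower in treated tumors (log2FC -3.92, SE 0.94, edgeR adjusted *p* = 0.0026). Without control replicate 2, the tumor at 90.8 CPM, the log2FC was -1.56 and did not pass (adjusted *p* = 0.0846), nor did it pass with limma-voom (-2.78, adjusted *p* = 0.0906). TP3 treated tumors ranged over 1.91, 1.76, 1.29 and 2.93 CPM and were called lower than TP2 controls (log2FC -4.14, SE 0.94, edgeR adjusted *p* = 0.0019), again not without control replicate 2 (log2FC -1.79, adjusted *p* = 0.0568) and not with limma-voom (-2.67, adjusted *p* = 0.0867).

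Among treated tumors alone Serpinb2 fell by 3.81 from TP1 to TP2 on the log2 scale (SE 0.93, edgeR adjusted *p* = 0.0154), with no overlap between 26.2 CPM, the lowest at TP1, and 3.79 CPM, the highest at TP2. It narrowly missed the threshold without TP1 treated replicate 1 (edgeR adjusted *p* = 0.0561) or TP2 treated replicate 4 (0.0513), and with both models fitted together (0.082). Without TP2 control replicate 2 in the fit the edgeR adjusted *p* was 0.00302, which follows from the choice of that library and adds no support. From TP2 to TP3 the levels overlapped (log2FC -0.23, SE 0.89).

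Serpine2 did not pass in 60577. Treated tumors at TP1 had 48.9, 59.8 and 35.1 CPM and controls 19.6, 40.8 and 40.5 CPM, which overlap (log2FC 0.52, SE 0.56, edgeR adjusted *p* = 0.518). At TP2 it was at 46.7, 30.7, 17 and 13.5 CPM in treated tumors and at 56.2, 7.37 and 51.0 CPM in controls. The low control, at 7.37 CPM, was again replicate 2, so the library highest in Serpinb2 and Plaur was the lowest of the 17 60577 tumors in Serpine2. TP3 treated tumors held 37.1, 52.9, 35.2 and 35.5 CPM.

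Over the 5 members tested in 60577, 2 were higher and none lower at TP1, where 15.6% of all 16241 genes tested were called in either direction (9.65% higher, 5.96% lower). Their median log2FC was 1.13, beside -0.00 over all genes tested, and 4 of the 5 did not overlap between the groups, as was so for 55.9% of all genes tested. Without TP2 control replicate 2 in the fit, a choice made after seeing the data, 3 were higher. At TP2, 2 were lower and none higher (24.4% of all genes called, 14.8% higher and 9.61% lower). Against TP2 controls, TP3 treated tumors also had 2 lower (24.4% of all genes called, 14.2% higher and 10.2% lower). Both of those comparisons share the 3 TP2 controls, and without control replicate 2 neither Plaur nor Serpinb2 was called in either. From TP1 to TP2 in treated tumors 3 of the 5 fell (6.02% of all genes called, 3.58% higher and 2.44% lower), and from TP2 to TP3 none was called (7.87% of all genes called, 3.47% higher and 4.4% lower). Between the control groups, TP2 against TP1, no member and 0 of 16241 genes were called by edgeR, with 1501 genes at an unadjusted *p* under 0.05, 70 calls by DESeq2 and 0 by limma-voom. In that comparison Serpinb2 had a log2FC of 3.03 (SE 1.00, edgeR adjusted *p* = 0.43).

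**Figure D2:**
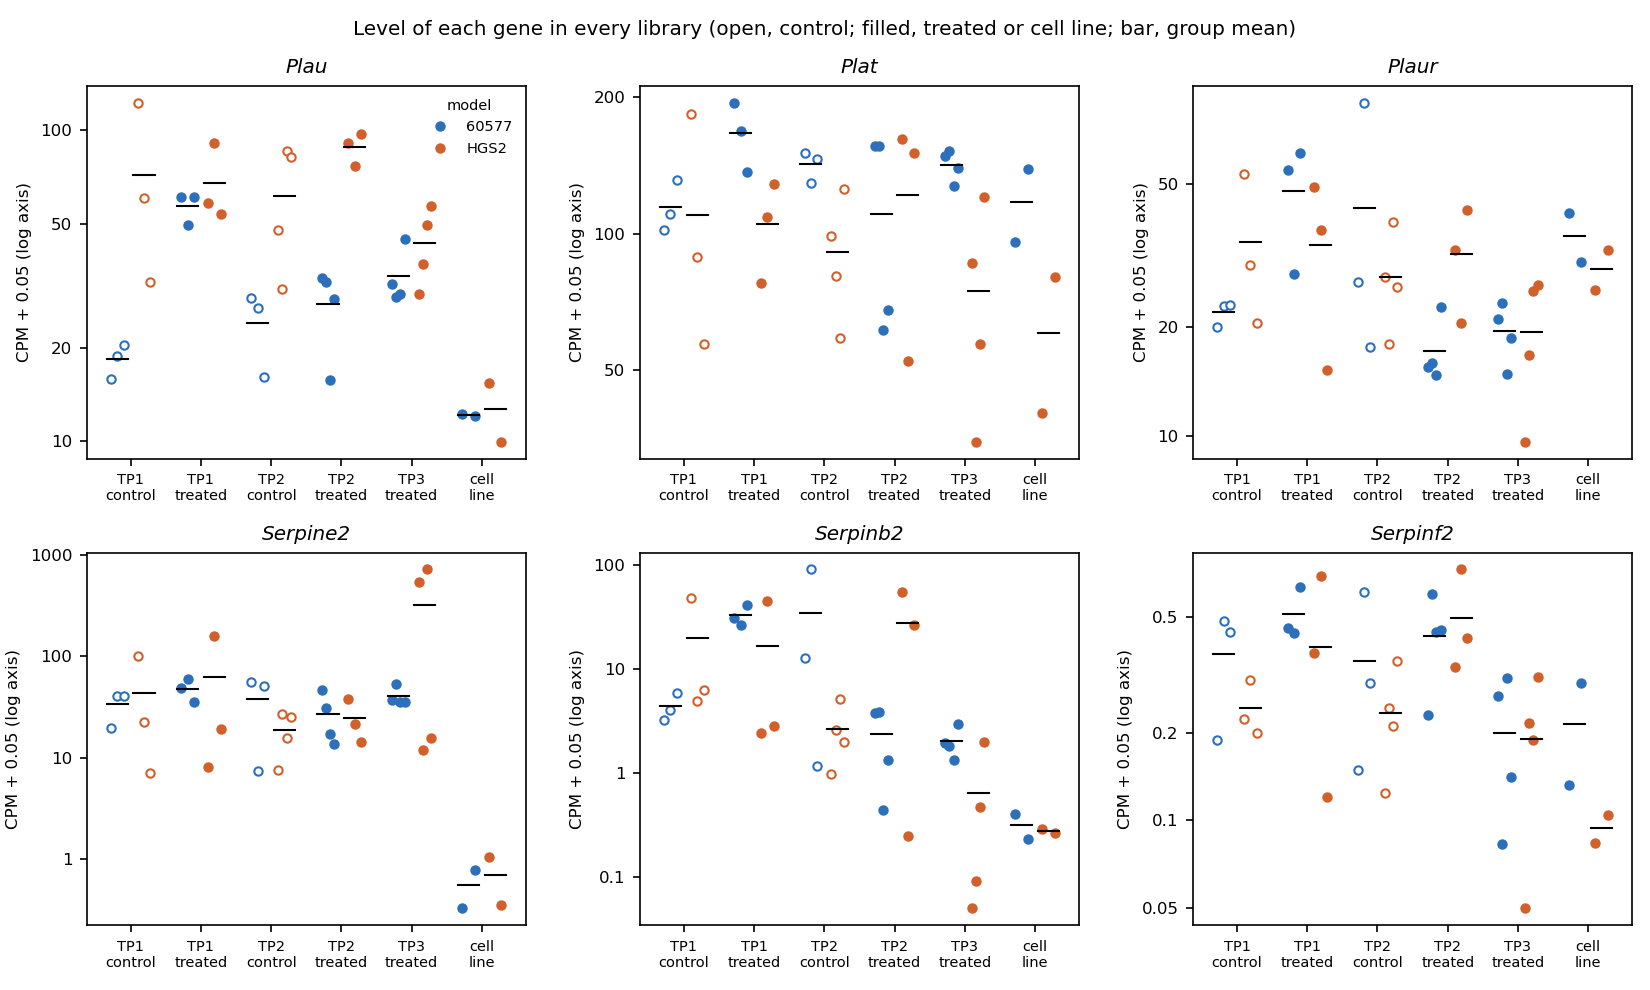
CPM (plus 0.05, log axis) of each gene in every library, by group along the horizontal axis, blue for 60577 and orange for HGS2, open for controls and filled for treated tumors or cultures, with a bar at the group mean. Plau of treated 60577 tumors at TP1 (49.3 to 60.9 CPM) sat above their controls (15.8 to 20.4 CPM), and 1 control at TP2 stood far above the others for Plaur and Serpinb2.

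Cell type markers moved with these groups in 60577. Of the neutrophil markers (S100a8, S100a9, Csf3r, Cxcr2, Ly6g and Mmp8), 5 of the 5 tested were higher in treated tumors at TP1, and all 5 fell in treated tumors from TP1 to TP2, as Plau, Plaur and Serpinb2 did. Of all genes tested, 9.65% were called higher and 5.96% lower at TP1, and 2.44% lower from TP1 to TP2. The neutrophil sum was 33.8 to 154 CPM in treated tumors and 9.40 to 22.5 CPM in controls at TP1. At TP2 it was 17.8 to 22.1 CPM in treated tumors and 17.9 to 46.1 CPM in controls, and 46.1 CPM was control replicate 2, the library highest in Serpinb2 and Plaur. S100a8 itself was low, at 15.5 CPM or less in all 60577 tumors. The macrophage sum, over Adgre1, Csf1r, Cd68, Mrc1, Cd163 and C1qa, was 783 to 934 CPM in treated tumors and 398 to 682 CPM in controls at TP1, where 1 of the 6 genes (Cd68) passed the test. Among 60577 groups this sum was highest at TP3, at 1121 to 1300 CPM. Plau was at 29.0 to 44.6 CPM there, below the 49.3 to 60.9 CPM of TP1 treated tumors. Fibroblast markers passed in 5 of 6 at TP1 (9810 to 15839 CPM in treated tumors, 3953 to 7133 CPM in controls), and the tumor epithelium sum was 425 to 837 CPM in treated tumors and 1994 to 2341 CPM in controls. Adipocyte markers rose in 5 of 5 at TP1, TP2 (4 without control replicate 2) and TP3, and mesothelial markers were lower in 5 of 6 at TP1. Of all genes tested, 14.8% were called higher at TP2 and 14.2% at TP3. The mesothelial sum was 3577 to 3893 CPM in 60577 cultures and 2358 to 2496 CPM in TP1 controls. The tumor cells thus express that list themselves. The part of any of these cell types in the levels of Plau, Plaur and Serpinb2 was not tested.

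**Figure D3:**
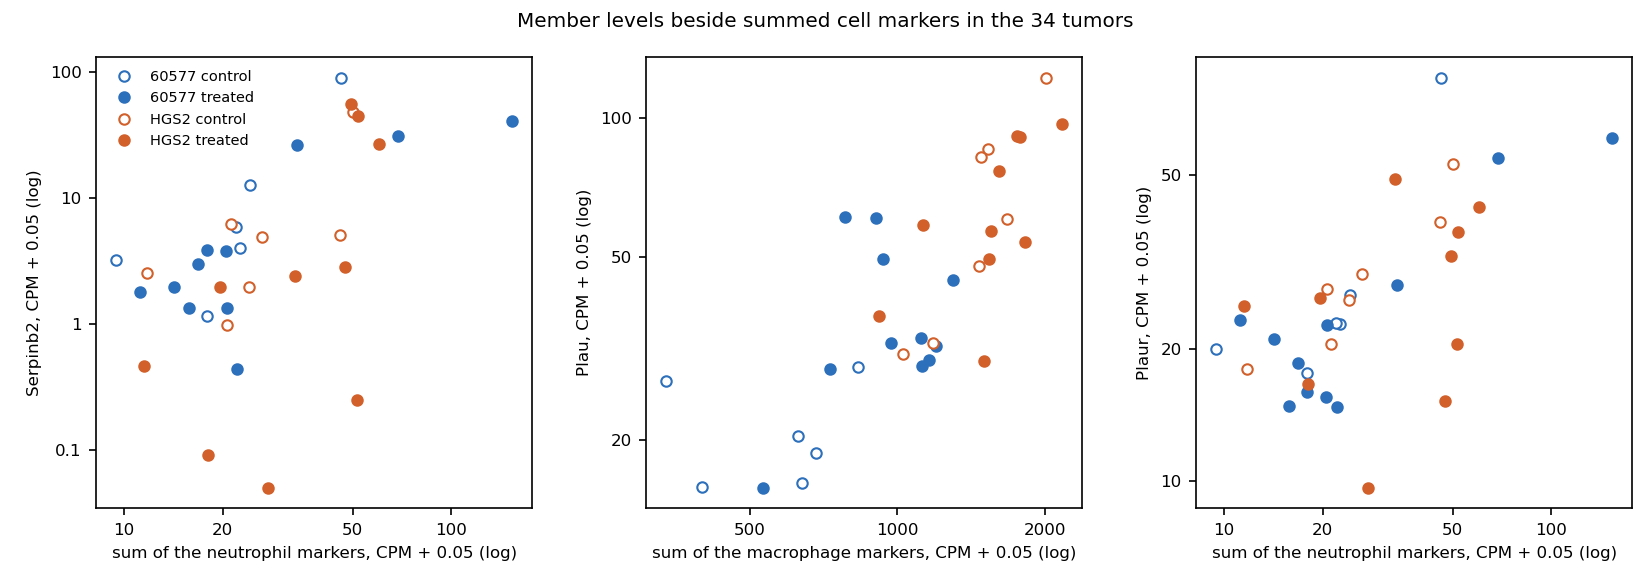
Serpinb2 against the summed neutrophil markers, Plau against the summed macrophage markers and Plaur against the summed neutrophil markers, all in CPM (plus 0.05, log axes), over the 34 tumors, open for controls and filled for treated. Macrophage sums ranged from 337 to 2173 CPM, and the HGS2 tumors (orange) sat toward the high end for both Plau and that sum. The 60577 TP3 treated tumors had sums of 1121 to 1300 CPM with Plau at 29.0 to 44.6 CPM.

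In HGS2, no member passed the test in any comparison of tumors within the model. With edgeR, 0 of 16241 genes were called for treated against control tumors at TP1, at TP2, or at TP3 against TP2 controls (0% each). Unadjusted *p* under 0.05 was reached by 413, 1233 and 406 genes, DESeq2 called 1, 8 and 5, and limma-voom called 0 in each. Among these genes were Serpinb2 at TP2 (log2FC 3.39, SE 1.45, edgeR adjusted *p* = 0.633) and Serpine2 at TP3 (log2FC 3.76, SE 1.38, edgeR adjusted *p* = 1). Changes between time points gave no calls either, with 152 genes from TP1 to TP2 and 1690 from TP2 to TP3 in treated tumors and 569 genes between controls at an unadjusted *p* under 0.05, against 1, 105 and 7 DESeq2 calls and 0 by limma-voom.

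HGS2 tumors of 1 group could differ widely in Plau. At TP1, controls were at 122, 60.4 and 32.5 CPM and treated tumors at 58.4, 91.1 and 53.7 CPM (log2FC -0.05, SE 0.42). The control at 32.5 CPM was a pancreas-rich tumor. At TP2, controls held 47.6, 30.8, 85.6 and 82.1 CPM, with the pancreas-rich tumor again the lowest, and treated tumors 90.7, 76.6 and 97.0 CPM. TP3 treated tumors were at 29.7, 37.1, 49.4 and 56.9 CPM, all below the TP2 treated tumors, a difference that did not pass in the fit, which left out replicate 1 at 29.7 CPM (log2FC -0.87, SE 0.43, edgeR adjusted *p* = 0.497). Plat in HGS2 ran over 184, 88.6 and 57.0 CPM in TP1 controls and 77.9, 109 and 128 CPM in TP1 treated tumors. At TP2 it was at 99.0, 80.7, 58.7 and 125 CPM in controls and at 162, 52.3 and 151 CPM in treated tumors, and at TP3 at 86.1, 34.7, 57.1 and 120 CPM. Every treated group overlapped its controls for this activator.

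The receptor also overlapped between treated and control HGS2 tumors. Plaur was at 53.1, 29.7 and 20.5 CPM in TP1 controls and at 49, 37.1 and 15.2 CPM in treated tumors, which left a log2FC of 0.00 (SE 0.43). TP2 controls had 27.4, 17.9, 39.1 and 25.8 CPM and treated tumors 32.7, 20.5 and 42.2 CPM. At TP3 the levels were 9.58, 16.6, 25.1 and 26.1 CPM, the first from replicate 1.

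Serpinb2 in HGS2 was high in single tumors and not in whole groups. Controls at TP1 held 47.9, 4.86 and 6.21 CPM and treated tumors 2.36, 44.8 and 2.77 CPM. At TP2 the controls held 0.930, 2.52, 5.08 and 1.93 CPM and treated tumors 55.5, 0.199 and 26.7 CPM. Thus 4 of the 17 tumors were above 26 CPM, in 3 groups, and no other exceeded 6.21 CPM. At TP3 the levels were 0, 0.0414, 0.415 and 1.93 CPM. The summed neutrophil markers were between 49.5 and 60.2 CPM in those 4 tumors and between 11.5 and 51.3 CPM in the other 13, of which TP2 treated replicate 2 had 51.3 CPM and the lowest TP2 Serpinb2, at 0.199 CPM.

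Serpine2 ranged from 6.91 to 724 CPM in HGS2, the highest level of any member in CPM. TP3 treated tumors were at 546, 11.9, 724 and 15.7 CPM. Replicates 1 and 3 stood far above all other tumors, and in the fit without replicate 1 the value at TP3 rested on replicate 3: without it the log2FC turned to -0.45 (SE 1.10, edgeR adjusted *p* = 1). Controls at TP1 held 102, 22.5 and 6.91 CPM and treated tumors 7.97, 160 and 19.0 CPM. At TP2 controls had 7.56, 26.8, 15.7 and 24.9 CPM and treated tumors 38.2, 21.2 and 14.1 CPM, which overlap. The fibroblast sum was 120274 and 143314 CPM in the TP3 replicates 1 and 3, against 37997 and 31682 CPM in replicates 2 and 4, whereas the TP1 control at 102 CPM of Serpine2 had the lowest fibroblast sum of its group (21970 CPM). The HGS2 cultures themselves had 25659 and 11212 CPM of these markers, with Serpine2 below 1 CPM. The part of fibroblasts in these levels was not tested.

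**Figure D4:**
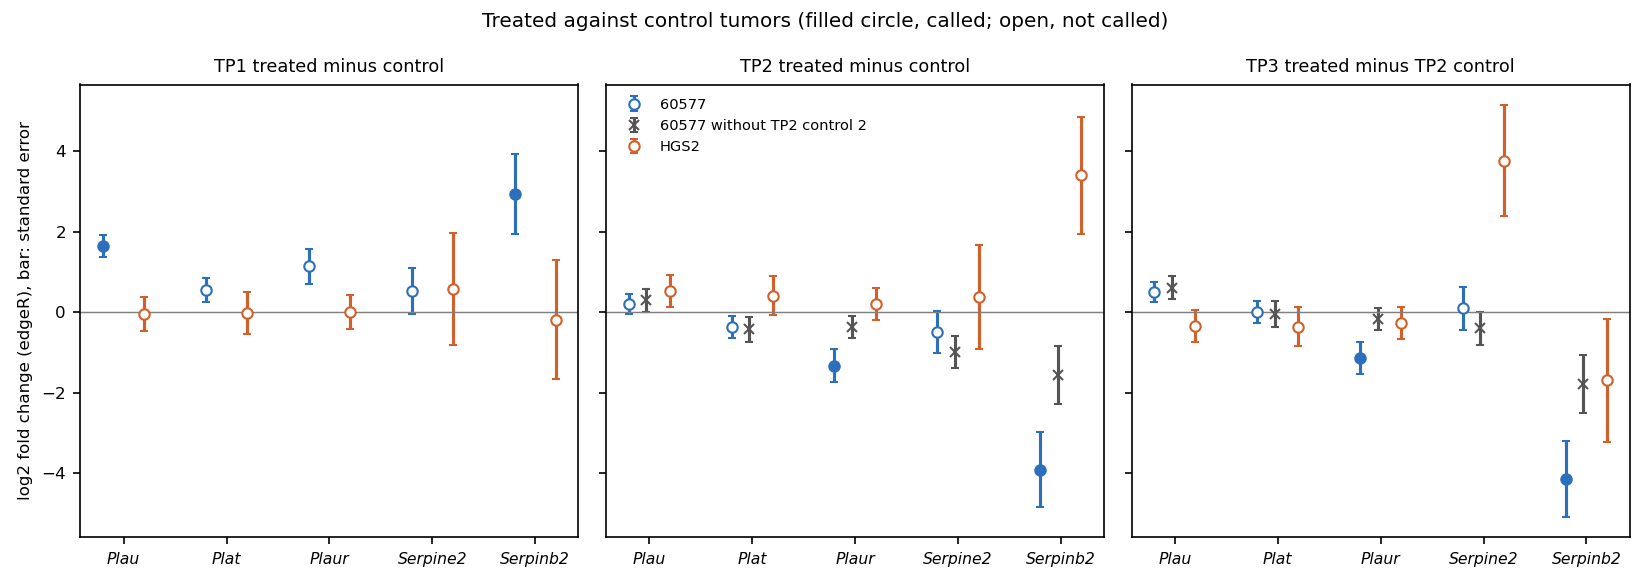
log2FC (edgeR) of treated against control tumors at TP1, TP2 and TP3 (against TP2 controls), blue for 60577 and orange for HGS2, with bars of 1 SE, filled where called, and gray crosses for 60577 without TP2 control replicate 2. Plau and Serpinb2 were called higher at TP1 in 60577, and the lower Plaur and Serpinb2 at TP2 and TP3 moved toward 0 without that control.

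Whether the models differed in their response was tested by an interaction. At TP1 none of the 5 members was called (1.45% of all genes were, 0.449% higher and 0.997% lower in HGS2). Plau came nearest, with a response lower in HGS2 than in 60577 by a log2 difference of -1.72 (SE 0.53, edgeR adjusted *p* = 0.0793). This difference passed without HGS2 TP1 control replicate 3 (-2.07, adjusted *p* = 0.033), without the 3 pancreas-rich tumors (-2.02, adjusted *p* = 0.0184) and with DESeq2 (adjusted *p* = 0.0295). Replicate 3 is among the pancreas-rich tumors and held the lowest Plau of its group, at 32.5 CPM. Leaving it out raises the control level, so the passes without it add no separate support. At TP2, 1 of 5 members was called (6.9% of all genes, 3.68% higher and 3.21% lower in HGS2), Serpinb2, whose response was higher in HGS2 by a log2 difference of 7.30 (SE 1.80, edgeR adjusted *p* = 0.0151). Without 60577 TP2 control replicate 2 the difference was 4.96 (SE 1.70, adjusted *p* = 0.101). Plaur had a difference of 1.52 (SE 0.60, edgeR adjusted *p* = 0.0949), which passed without 60577 TP2 control replicate 3 (1.90, adjusted *p* = 0.0403). That fit kept 60577 TP2 control replicate 2, at 83.6 CPM of Plaur. The 60577 side of this difference rested on that library, with a log2FC of -1.33 with it and -0.37 without it.

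Between the models' control tumors, TP1 and TP2 averaged, Plau was the 1 of 5 members called (22% of all genes were, 13.2% higher and 8.81% lower in HGS2). It was 3.17-fold higher in HGS2 (log2FC 1.67, SE 0.26, edgeR adjusted *p* = 1.16e-05), with all 7 HGS2 controls (30.8 to 122 CPM) above the 6 60577 controls (15.8 to 28.8 CPM). The call held in every alternative, with log2FC between 1.35 and 1.91. Plat (log2FC -0.35, SE 0.30), Plaur (0.01, SE 0.31), Serpine2 (-0.32, SE 0.75) and Serpinb2 (-0.77, SE 0.88, or 0.40 without 60577 TP2 control replicate 2) did not pass. All 6 macrophage markers tested were higher in HGS2 controls than in 60577 controls, with sums of 1028 to 2014 CPM against 337 to 831 CPM, and 4 of 6 fibroblast markers were higher, with the same counts without the pancreas-rich tumors. Between the cultures, 5 of 6 fibroblast markers were also higher in HGS2 cells, beside 7.55% of all genes. Their sums were 11212 to 25659 CPM in HGS2 cells and 933 to 1516 CPM in 60577 cells, so this list does not mark fibroblasts alone. The part of macrophages or fibroblasts in the difference of Plau was not tested.

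The cultures had little of the serpins. Plau was at 12.2 and 12 CPM in 60577 cells and at 15.3 and 9.93 CPM in HGS2 cells. All lay below every tumor, but narrowly, since the lowest tumor was at 15.7 CPM. Plat was at 95.7 and 139 CPM in 60577 cells and at 40.2 and 80.2 CPM in HGS2 cells, and Plaur at 41.3 and 30.2 CPM and at 25.3 and 32.7 CPM, both within the range of the tumors. Serpine2 held 0.274 and 0.719 CPM in 60577 cells and 0.978 and 0.297 CPM in HGS2 cells, and Serpinb2 0.357, 0.180, 0.236 and 0.216 CPM in the same order. Cultures and tumors came from separate tables, so these levels were set side by side without a test. Macrophage marker sums were 1.16 to 4.67 CPM in the cultures, where S100a8 was at 0.0899 CPM or less. Of the members, 3 passed the filter in cultures and none was called between the lines (15.9% of all genes tested were, 7.55% higher and 8.38% lower in HGS2), with 4918 of 13742 genes at an unadjusted edgeR *p* under 0.05. Plat was 1.95-fold lower in HGS2 cells (log2FC -0.96, SE 0.38, edgeR adjusted *p* = 0.138). Its levels did not overlap between the lines, as was so for 66.6% of all genes tested. Without HGS2 replicate 2 the log2FC was -1.50, in a fit that left 1 HGS2 library and took its spread from the 60577 libraries alone. Plau (log2FC 0.06, SE 0.29) and Plaur (-0.30, SE 0.25) overlapped.

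Ordered by mean CPM over the 12 groups, most neighbors were not apart. Plau ran from 88.1 ± 10.4 CPM (SD, n = 3) in HGS2 TP2 treated tumors to 12.1 ± 0.169 CPM (SD, n = 2) in 60577 cells, and of its 11 neighboring pairs only 60577 TP1 controls and HGS2 cells did not overlap. The gap was small, from 15.8 CPM in the lowest control to 15.3 CPM in the highest HGS2 culture, between libraries scaled separately. HGS2 tumors of TP1 and TP2, control and treated, filled ranks 1 to 4, followed by 60577 TP1 treated tumors at 57.0 ± 6.63 CPM (SD, n = 3). Plat ran from 167 ± 28.7 CPM in 60577 TP1 treated tumors (SD, n = 3) to 60.2 ± 28.3 CPM in HGS2 cells (SD, n = 2), and Plaur from 47.8 ± 17.5 CPM in the same treated tumors (SD, n = 3) to 17.2 ± 3.71 CPM in 60577 TP2 treated tumors (SD, n = 4), and all 11 neighbors of each overlapped. Serpine2 ran from 324 ± 366 CPM in HGS2 TP3 treated tumors (SD, n = 4), or 251 ± 410 CPM without replicate 1 (SD, n = 3), to 0.497 ± 0.314 CPM in 60577 cells (SD, n = 2). It had 1 gap, between HGS2 TP2 controls and HGS2 cells. Serpinb2 was highest in 60577 TP2 controls at 34.8 ± 48.8 CPM (SD, n = 3), or 6.85 CPM without replicate 2, followed by 60577 TP1 treated tumors at 32.8 ± 7.64 CPM (SD, n = 3). Its 11 neighbors overlapped, as did those of Serpinf2, which ran from 0.459 to 0.0438 CPM.

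Around the members, 29 other genes of the plasmin system were counted, of which 21 passed the filter in tumors. The list was chosen with earlier results of these data known, so a count above the share of all genes is no independent support. Plasminogen itself (Plg) was nearly absent, with 0 to 12 expected counts in a tumor and 0 in the cultures, and the fibrinogen genes Fga, Fgb and Fgg failed the filter. At TP1 in 60577, 9 of the 21 rose and none fell (median log2FC 1.06, against -0.00 over all genes, of which 9.65% were called higher). They were the proteases Ctsb (cathepsin B, log2FC 1.50) and St14 (matriptase, 1.55), which can activate pro-uPA, the uptake receptors Lrp1 (1.06) and Mrc2 (1.26), the integrin chains Itgam (1.83) and Itgb2 (2.63) of leukocytes, the C1 inhibitor Serping1 (1.36), and the growth factors Hgf (1.55) and Pdgfd (1.40). Itgb2 was at 194 to 397 CPM in treated tumors and at 41.1 to 59.1 CPM in controls.

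At TP2 the same list was divided in 60577. Of the 21, 2 were higher, St14 (log2FC 1.25) and Pdgfd (1.97), and 4 lower, Itgam (-1.06), the plasminogen-binding pair Anxa2 (-1.56) and S100a10 (-1.06), and Eno1 (-2.69), whose near-identical copies make its count uncertain. These 6 calls stand beside 24.4% of all genes. Without control replicate 2, Pdgfd (1.61), Anxa2 (-1.19) and Eno1 (-2.06) kept their calls, and St14 (0.99), Itgam (-0.47) and S100a10 (-0.88) did not pass. From TP1 to TP2 in treated tumors 5 fell and none rose, Ctsb (-1.35), Itgb2 (-1.59), Itgam (-1.96), Anxa2 (-1.18) and Eno1 (-1.26), beside 6.02% of all genes called. At TP3, against TP2 controls, St14 (1.60), Serping1 (1.54), Hgf (1.79) and Pdgfd (3.08) were higher and Eno1 (-2.58) lower, which are 5 calls beside 24.4% of all genes and also held without control replicate 2, while from TP2 to TP3 among treated tumors 1 gene was called, Serping1 (1.19), and Vtn (2.28) and Pdgfd (1.11) were added without control replicate 2 in the estimate of spread. Pdgfd, which plasmin or uPA can activate, was at 14.9 to 18.2 CPM at TP3 and 0.840 to 3.11 CPM in TP2 controls.

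In HGS2 none of the 21 was called within the model. Between control tumors 11 were called higher in HGS2 and none lower, but 7 without the 3 pancreas-rich tumors (13.2% of all genes were called higher with them). Itgb3 (log2FC 2.07 with them and 2.25 without), Mrc2 (2.70 and 2.63), Serpini1 (1.92 and 1.60), A2m (3.91 and 4.26), Hgf (1.90 and 2.17), Pdgfd (1.75 and 1.40) and St14 (2.72 and 1.22) kept their calls. Hpn (2.94 and 0.07), Vtn (3.53 and 0.52), Pdgfc (1.08 and 0.995) and F13a1 (1.14 and 0.89) did not. Without 60577 TP2 control replicate 2, 10 of the 11 were called, all but Pdgfc (0.94). Of these Serpini1 (neuroserpin) is an inhibitor of tPA and A2m a general protease trap. The response at TP1 differed for none, or for Itgb2 (-2.15) and Mrc2 (-1.49) without 60577 TP2 control replicate 2 and for Itgb2 (-2.40) and Itgam (-2.14) without the pancreas-rich tumors. At TP2 it differed for Anxa2 (1.19) and Eno1 (2.73), both higher in HGS2, beside 6.9% of all genes, and without 60577 TP2 control replicate 2 for Eno1 (2.12) and not Anxa2 (0.83). Between the cell lines, Itgb3 (2.68), Mrc2 (3.58) and Pdgfc (2.17) were higher in HGS2 cells among 14 tested, beside 15.9% of all genes called.

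The genes with the most similar pattern were looked up for each member, by Pearson's correlation of log2 CPM over 33 tumors after the mean of each model was removed. The tumors share depth, model and cell makeup, so the values are a description with no test. Plau was closest to Plek (0.914), Alox5ap (0.897) and Tgfbi (0.888), and Plat to Nfe2l2 (0.853), Fcgr3 (0.830) and Hspb8 (0.805). Plaur was closest to Tmem189 (0.901), Inhba (0.897) and Plod3 (0.879). For the serpins, Serpine2 gave Sema7a (0.770), Tspan11 (0.766) and Loxl4 (0.735), and Serpinb2 gave Rab15 (0.848), Tnfaip6 (0.844) and Nos2 (0.825). With Spearman's correlation, 2 of the 3 genes remained for Plau, Plaur and Serpinb2 and 1 of 3 for Plat and Serpine2.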

How the data were processed

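RNA of snap-frozen tumors and of cultures was depleted of ribosomal RNA and sequenced from both ends, with strand kept. The submitters' processing notes name Trim Galore 0.6.5, STAR 2.7.0f, RSEM and GRCm38. Deposited by the authors were expected counts from RSEM for 55487 genes, neither filtered nor normalized, in separate tables for tumors and cultures. The correction for length and GC content that the authors applied before testing is not in them, and no column was left without a sample (0).

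Counts were rounded, and genes with 1 CPM or more in at least 25% of libraries were kept (16241 in 33 tumors, 13742 in cultures). TMM scaling and edgeR 4.0.16 (quasi-likelihood, two-sided, Benjamini-Hochberg over all genes kept, R 4.3.3) were used. The 5 groups of a model were fitted together, HGS2 without TP3 treated replicate 1, and both models jointly for interactions and control tumors. A call needed an adjusted p below 0.05 and an absolute log2FC above 1. The SE is the log2FC over the square root of F, and log2 CPM for correlations used a prior count of 2. RPKM used the summed exon length of GENCODE M21, in which 55227 of the genes had an entry. Marker and plasmin-system lists were written out by hand. The members and lists were chosen with earlier results of these data known. Named were the members in each comparison, list genes called, and the 3 protein-coding genes nearest to each member in pattern.

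Alternatives were DESeq2 1.42.0 size factors and Wald test, limma-voom (limma 3.58.1), other low-count filters, other sets of samples in the fit, the replicate number as a block, and each library left out. The test was tried on simulated data. In 44 pairs of replicates counts differed by a chi-square of 9.38 to 713 per degree of freedom, so none was counted as a copy. Depth was 17839635 to 49299442 counts per tumor. Neither labels nor methods pair tumors, but same-numbered tumors deviated together (every correlation above 0.1) at TP2 in 60577 (0.144, 0.114 and 0.134) and HGS2 (0.138, 0.295 and 0.296), and there the block changed no call of a member. Promoters were RefSeq's for GRCm38.p6, matched by symbol for 4 members.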

Additional observations from a re-analysis of the deposited data

Results flagged for a closer look

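Of 24 groups of 4 tumors, by member, 2 held a tumor far from the other 3, and chance alone gives about 1 in 20. In 60577 at TP2, Plaur was at 22.7 CPM in treated replicate 4, with the next tumor at 15.9 CPM and the lowest at 14.7 CPM. In 60577 at TP3, Serpine2 was at 52.9 CPM in treated replicate 2, with the next at 37.1 CPM and the lowest at 35.2 CPM.

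The response of Serpinb2 to treatment at TP2 differed between the models by an interaction of 7.30 on the log2 scale (edgeR adjusted *p* = 0.0151), or 4.96 (adjusted *p* = 0.101) without 60577 TP2 control replicate 2. HGS2 TP3 treated replicate 1 was left out of the tests in the report and had 546 CPM of Serpine2, above the highest HGS2 control at 102 CPM. With all 17 HGS2 tumors in the fit, TP3 treated tumors against TP2 controls gave a log2FC of 4.13 for Serpine2 (SE 1.33, edgeR adjusted *p* = 0.931), which did not pass.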

How the results depend on the processing

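Of 78 values of a member in a comparison 11 were called. Their 181 alternatives kept the call in 150 and the direction in all 181. Over all 1308 alternatives, 81 changed sign, none of them of a called value, and 10 gained a call. The calls of Plau at TP1 in 60577 and between control tumors held in every alternative. Counts of members called moved under these alternatives. With limma-voom they went from 2 to 1 at TP1 and at TP2 in 60577, from 2 to 0 at TP3, and from 1 to 0 for the response at TP2. With both models fitted together they went from 2 to 1 at TP1 and from 3 to 1 for treated TP2 against TP1 in 60577. With only the compared groups they went from 2 to 3 at TP1, from 2 to 1 at TP2 and at TP3, and from 3 to 2 for treated TP2 against TP1. With DESeq2's Wald test TP1 went from 2 to 3. With that test, and without the 3 pancreas-rich tumors (chosen after seeing the data), the response at TP1 went from 0 to 1 (Plau). Leaving out each library in turn gave 1 to 3 members at TP1, 0 to 2 at TP2, 0 to 2 at TP3 and 0 to 3 for treated TP2 against TP1 in 60577, 0 to 1 and 0 to 2 for the responses at TP1 and TP2, and 0 to 1 for the cell lines. Leaving 60577 TP2 control replicate 2 out of the fits for TP1 and for treated tumors was also chosen after seeing the data, and gave 3 members at TP1 (Plaur added) and 3 for treated TP2 against TP1. The causes were not tested.

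With the replicate number as a block, the count at TP3 in 60577 went from 2 to 1 (Plaur, log2FC -1.09, edgeR adjusted *p* = 0.0579) and in the cell lines from 0 to 1 (Plat, log2FC -1.02, edgeR adjusted *p* = 0.0403). The block changed no other call of a member. Neither labels nor methods say that same-numbered tumors share more than a number, at TP2 or elsewhere. Crossing the numbers of 1 cell line, added after seeing the data since same-numbered libraries correlated at -0.153, gave 0 members and 2221 genes called, against 2237 with the block and 2189 without it.

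Over all alternatives, genes called ranged from 247 to 1369 for treated TP2 against TP1 in 60577 (977 as reported), from 732 to 2127 for TP3 against TP2 (1278), from 1605 to 2980 at TP1 (2535), from 62 to 721 and 365 to 1666 for the responses at TP1 and TP2 (235 and 1120), from 3368 to 5377 for control tumors (3577), and from 503 to 3849 for cell lines (2189). Where none was called, alternatives reached 70 genes between 60577 control groups and, in HGS2, 1, 8 and 5 for treated against control tumors at TP1, TP2 and TP3, 1 and 105 between treated groups and 49 between control groups. Depth limits Serpinf2, with 19 counts at most, and Serpinb2 in HGS2 at TP3, with no count in replicate 1.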
